A study of Mus musculus with 9 samples.

Results

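The 10 genes described here belong to the Notch pathway: the nuclear repressors Hey1, Hey2, Heyl and Hes1, the feedback inhibitor Nrarp, the ligands Jag1 and Jag2, and the receptors Notch1, Notch2 and Notch3. They were taken by name, with all probe sets annotated to a single one of these symbols, which gave 19 probe sets of the 45037 tested and 10 of 18193 genes. RNA was measured on 9 mouse genome arrays, 3 per group, from cultures treated with TGF-β1 (5 ng/ml), cultures treated with BMP4 (50 ng/ml) and untreated cultures. Treatment lasted 8 hours, with 1 dose and 1 time for each factor. The cells came from wild type mouse embryos at the stage E11.5. They were sclerotome mesenchyme from below the neural tube, dissected free of notochord and plated as dense drops (micromass cultures), and every culture of all 3 groups stood in the same serum-containing medium. The sclerotome forms the vertebrae and the intervertebral discs. The sample records and the culture methods differ on whether the factors were added after a night in culture or soon after attachment, and which was done here is unknown. The experiment was repeated 3 times, each repeat gave 1 array per group, and the p values rest on the spread between repeats. The array titles carry the numbers 1 to 3 in each group.

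Notch receptors are cleaved when a Jagged or Delta ligand on a neighbouring cell binds them. The freed intracellular part enters the nucleus, joins the DNA-binding protein RBPJ and switches on genes of the Hes and Hey families, whose products repress other genes. In the somites the pathway times the formation of segments, and in cartilage and blood vessel walls it is known for holding cells back from, or guiding them into, differentiation. Hey genes are also known to respond to BMP signalling in several cell types.

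The deposited values are on a log2 scale on which each probe set was centred on its own median over the 9 arrays. A value of 0 therefore marks the median array, differences between arrays are kept, and the level of one gene cannot be set against that of another. For the same reason the defining markers of sclerotome could not be checked for presence. Probe sets are called at an adjusted p under 0.05 (limma, Benjamini-Hochberg over 45037 probe sets). In these bulk cultures, fewer cells of a type and less RNA per cell cannot be told apart.

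With BMP4, Hey1 and Hey2 rose about 3-fold and 4-fold over untreated cultures, Jag1 rose on 1 of its 3 probe sets and Notch1 fell on 1 of its 2. With TGF-β1, Hey2 and Hes1 rose 1.40-fold and 1.45-fold over untreated cultures. The 3 probe sets of Heyl were higher on all TGF-β1 arrays than on all untreated arrays, as were 9.87% of all probe sets. None of these 3 was called in the fit of all arrays without a block (adjusted p = 0.071 to 0.10). Set against BMP4 directly, TGF-β1 cultures had less Hey1 and Hey2, and more Notch1 on both probe sets and Heyl on 1 of 3.

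**Figure D1:**
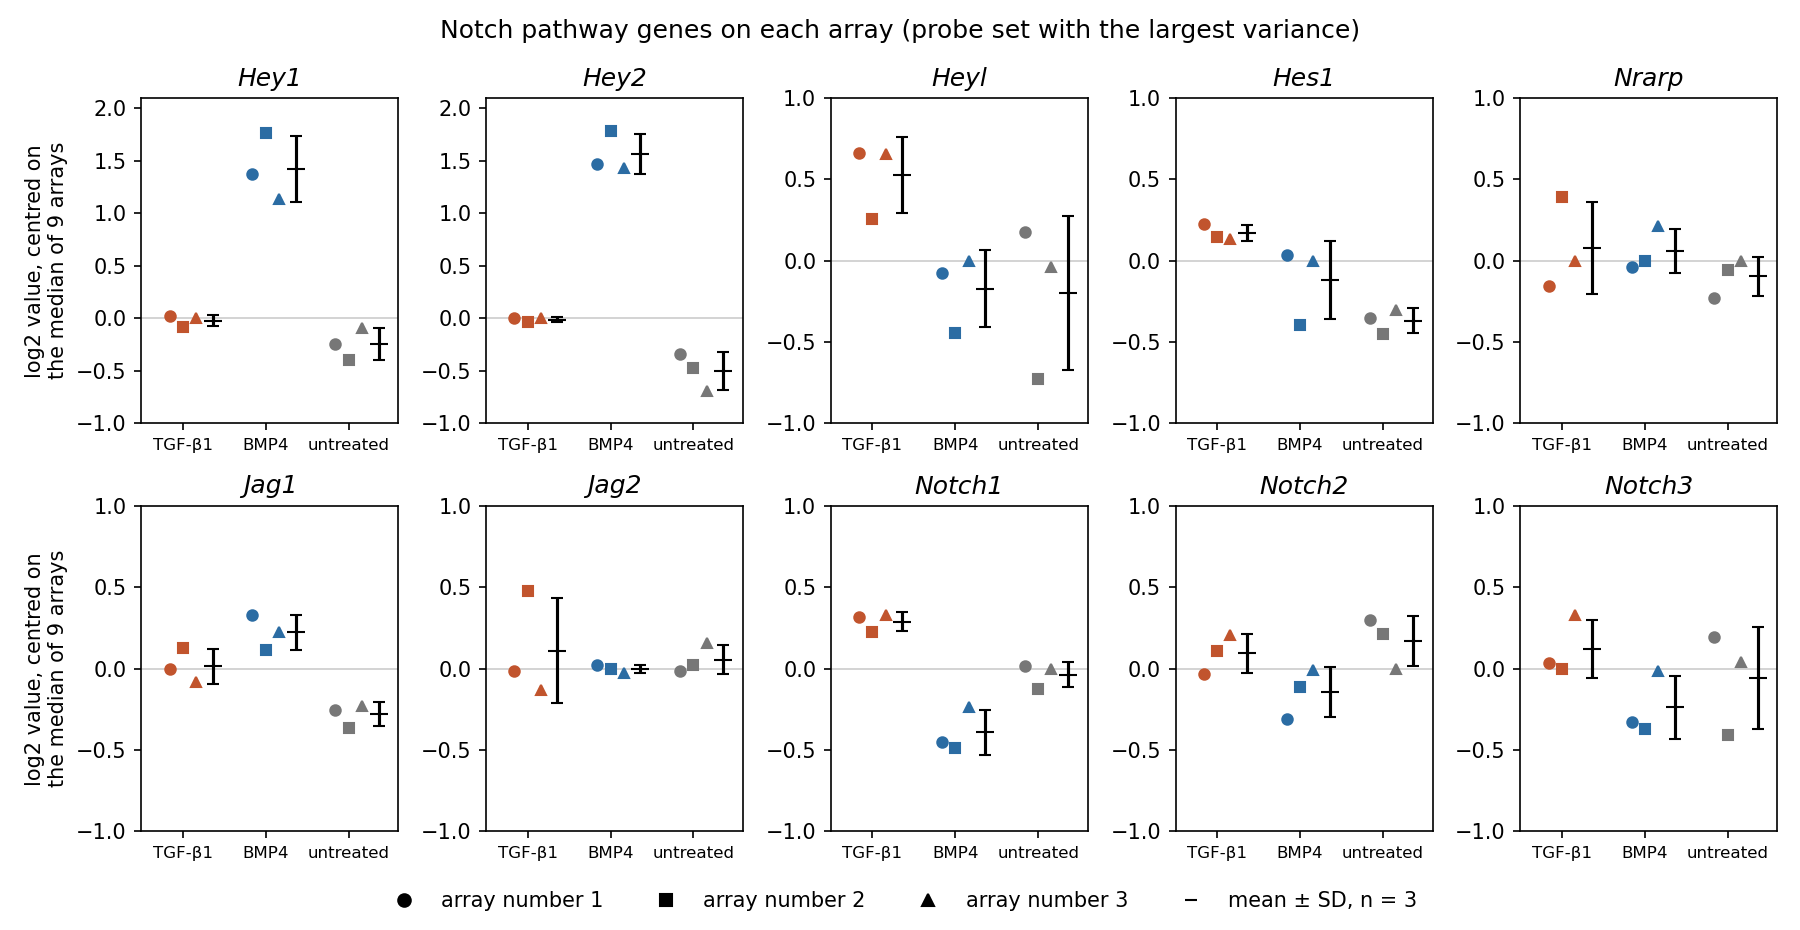
Each panel shows 1 gene on its probe set with the largest variance, with the log2 value centred on the median of 9 arrays on the y axis and the groups TGF-β1, BMP4 and untreated on the x axis. Symbols are single arrays by number, and bars give mean ± SD (n = 3). The y axis runs higher in the panels of Hey1 and Hey2, whose BMP4 arrays lie at 1.13 to 1.78, above every array of the other groups.

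Hey1 and Hey2 encode basic helix-loop-helix repressors that Notch switches on in many tissues. Hey1 had values of 0.02, -0.08 and 0.00 on the TGF-β1 arrays numbered 1 to 3, 1.37, 1.76 and 1.13 on the BMP4 arrays, and -0.24, -0.40 and -0.09 on the untreated arrays. The BMP4 arrays stood well apart from both other groups, and the TGF-β1 arrays lay just above the untreated ones without overlap. The BMP4 arrays averaged 1.42 ± 0.32 and the untreated arrays -0.24 ± 0.16 (SD, n = 3 each), a difference of 1.67 ± 0.14 (SE, log2), 3.17-fold higher with BMP4 (adjusted p = 0.00023, 95% confidence interval 1.34 to 1.99). TGF-β1 minus untreated was 0.22 ± 0.14, which was not called (adjusted p = 0.45, interval -0.10 to 0.55). TGF-β1 minus BMP4 was -1.44 ± 0.14 (adjusted p = 0.00034), a level 2.72-fold lower in TGF-β1 cultures.

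Hey2 followed the same order with less spread. Its values were 0.00, -0.04 and 0.00 with TGF-β1, 1.47, 1.78 and 1.43 with BMP4, and -0.34, -0.47 and -0.69 in untreated cultures. No array of one group reached the values of another. BMP4 minus untreated was 2.06 ± 0.11 (SE), 4.17-fold higher with BMP4 (adjusted p = 3.9e-05, interval 1.81 to 2.32). By the size of the difference Hey2 stood at rank 44 of 45037 in that comparison, and Hey1 at rank 92. TGF-β1 minus BMP4 was -1.57 ± 0.11, a level 2.98-fold lower in TGF-β1 cultures (adjusted p = 5.9e-05). These calls for Hey1 and Hey2 with BMP4 and between the factors were made in 9 of the 9 fits that each left out 1 array.

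TGF-β1 also raised Hey2 over untreated cultures, by 0.49 ± 0.11 or 1.40-fold (adjusted p = 0.043, and 0.024 with the array number as a block). This call was made in 1 of 9 fits that left out 1 array, the one without BMP4 replicate 2, and leaving out any other array took the adjusted p to between 0.051 and 0.13. The difference itself ran from 0.39 to 0.57 over those 9 fits.

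Across the 9 arrays, Hey1 and Hey2 had a Pearson r of 0.97, against -0.28 for Hey1 with Heyl and -0.22 for Hey2 with Heyl (probe set with the largest variance). These correlations describe arrays that share 3 treatments and carry no test. Among 751 other genes with an SD of at least 0.5 over the arrays, the patterns most like Hey1 were those of Map7d2 (r = 0.99), Hecw2 (r = 0.99), S1pr5 (r = 0.99) and Nog (r = 0.99), the last a secreted BMP antagonist. For Hey2 they were Celf4 (r = 0.99), Pcsk6 (r = 0.99), Trabd2b (r = 0.99) and Map7d2 (r = 0.98). Nog averaged 0.04 with TGF-β1, 3.00 with BMP4 and -0.36 in untreated cultures, and Celf4 averaged -0.03, 1.12 and -0.33 in the same order of groups.

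The promoter of Hey2 is printed because Hey2 had the lowest p of the 10 genes in the BMP4 comparison and its window holds both a Notch and a BMP motif. RefSeq windows (build GRCm38.p6, 300 bases that end 50 bases after the start of transcription) were matched for 7 of the 10 genes, and Hey1, Heyl and Hes1 had no entry. The Hey2 window lies at chr10:30842734-30843033 on the minus strand. Capitals mark the core RBPJ motif TGGGAA, read on either strand at -207 to -202 and at -3 to 3 from the start, and the GC-rich Smad motif GGCGCC at 40 to 45.

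Hey2: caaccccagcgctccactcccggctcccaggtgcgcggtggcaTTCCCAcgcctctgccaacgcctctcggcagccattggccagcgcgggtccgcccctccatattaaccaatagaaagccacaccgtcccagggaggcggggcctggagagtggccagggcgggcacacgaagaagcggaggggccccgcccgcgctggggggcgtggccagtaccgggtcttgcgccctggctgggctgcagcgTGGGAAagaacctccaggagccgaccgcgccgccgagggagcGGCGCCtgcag

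Among the matched windows TGGGAA was found in 1 of 7 and GGCGCC in 1 of 7, both times in Hey2. Of all 32851 RefSeq windows of 300 bases, 25.6% held TGGGAA and 11.9% held GGCGCC on either strand. The E-box CACGTG, which Hey proteins bind, was in 7.15% of all windows and in 1 of 7 here, that of Nrarp. A match shows that the letters are present and does not show binding.

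Heyl encodes the third repressor of the family, known from smooth muscle of vessel walls, and had its highest values with TGF-β1. Its probe set 1419302_at had values of 0.66, 0.25 and 0.66 with TGF-β1, -0.08, -0.44 and 0.00 with BMP4, and 0.17, -0.73 and -0.04 in untreated cultures. Probe set 1419303_at had 0.44, 0.34 and 0.37 with TGF-β1, 0.00, -0.50 and -0.12 with BMP4, and -0.10, -0.44 and 0.05 in untreated cultures. Probe set 1438886_at had 0.74, 0.14 and 0.59 with TGF-β1, 0.00, -0.58 and 0.00 with BMP4, and -0.06, -0.65 and -0.04 in untreated cultures. On each of the 3 probe sets all TGF-β1 arrays lay above all arrays of the other groups, while BMP4 and untreated arrays overlapped.

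For Heyl, TGF-β1 minus untreated was 0.72 ± 0.22, 0.55 ± 0.15 and 0.74 ± 0.22 (SE) on 1419302_at, 1419303_at and 1438886_at. None was called in the unblocked fit (adjusted p = 0.10, 0.071 and 0.095). All 3 were called higher with the array number as a block (adjusted p = 0.0051, 0.014 and 0.00073). The block takes the TGF-β1 and untreated arrays as paired by number, which the correlation check described with the methods shows only narrowly. TGF-β1 minus BMP4 was 0.70 ± 0.22, 0.59 ± 0.15 and 0.68 ± 0.22, with 1419303_at called (1.51-fold, adjusted p = 0.040). The others were not called in the unblocked fit of all arrays (adjusted p = 0.097 for 1419302_at and 0.10 for 1438886_at). Both were called under the block (adjusted p = 0.0036 and 0.00053) and without the arrays numbered 2 (adjusted p = 0.015 and 0.013). BMP4 minus untreated was 0.02 ± 0.22 on 1419302_at, with an interval of -0.47 to 0.51, and was not called on any of the 3 probe sets (adjusted p = 0.93 to 0.98). The call of 1419303_at between the factors was lost without untreated replicate 1, without BMP4 replicate 2 or 3 or without any 1 of the TGF-β1 arrays, with adjusted p up to 0.12. The patterns most like Heyl (1419302_at) were those of Ccn1 (r = 0.97), Prima1 (r = 0.96), Myl9 (r = 0.95) and Tesc (r = 0.95). Ccn1 encodes a matrix-associated signalling protein and Myl9 a myosin light chain of smooth muscle, and Myl9 averaged 0.43 with TGF-β1, -0.43 with BMP4 and -0.32 in untreated cultures.

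**Figure D2:**
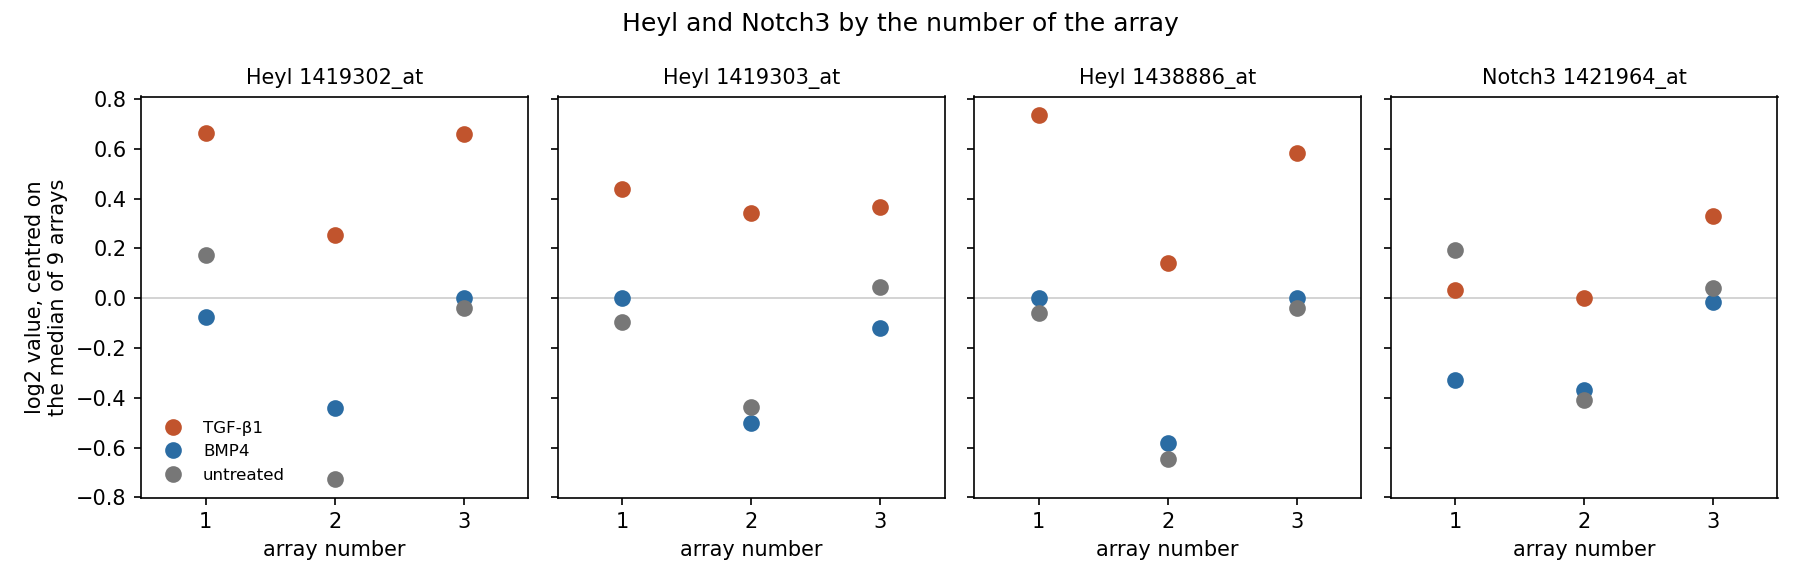
The panels show the 3 probe sets of Heyl and 1 of Notch3, with the array number on the x axis, the centred log2 value on the y axis and 1 point per array coloured by group. The array numbered 2 is the lowest of its group in every panel, and the TGF-β1 arrays lie above the others of the same number in the 3 Heyl panels.

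The array number moved with Heyl in every group. On 1438886_at the array numbered 2 lay 0.52 below the mean of arrays 1 and 3 with TGF-β1, 0.58 below it with BMP4 and 0.60 below it in untreated cultures, as plotted by array number. Array 2 was lowest in all 3 groups for 6 of the 19 probe sets (31.6%), against 9.11% of all 45037 probe sets. Those 6 were the 3 of Heyl, Jag1 1434070_at, Notch1 1418634_at and Notch3 1421964_at. Without the 3 arrays numbered 2, TGF-β1 minus untreated for Heyl was 0.59 on 1419302_at (adjusted p = 0.044) and 0.71 on 1438886_at (adjusted p = 0.016), both called, and 0.43 on 1419303_at (adjusted p = 0.098), not called. TGF-β1 minus BMP4 on 1419303_at was then 0.46 and no longer called (adjusted p = 0.057). What set these arrays apart was not tested.

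Hes1, a repressor with the same kind of DNA-binding domain and a direct Notch target, had values of 0.23, 0.15 and 0.14 with TGF-β1, 0.04, -0.39 and 0.00 with BMP4, and -0.35, -0.45 and -0.30 in untreated cultures. The TGF-β1 arrays lay above both other groups, and BMP4 replicate 2 lay among the untreated arrays. TGF-β1 minus untreated was 0.54 ± 0.11, 1.45-fold higher with TGF-β1 (adjusted p = 0.027, interval 0.29 to 0.79, and 0.0099 with the block). BMP4 minus untreated was 0.25 ± 0.11 and not called (adjusted p = 0.30). Leaving out BMP4 replicate 2 gave 0.39 (adjusted p = 0.046). TGF-β1 minus BMP4 was 0.29 ± 0.11 and not called (adjusted p = 0.18). The TGF-β1 call was made in 4 of the 9 fits without 1 array and was lost without untreated replicate 1 or 2 or any 1 TGF-β1 array, with adjusted p between 0.067 and 0.097.

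Nrarp encodes an ankyrin repeat protein that Notch induces and that dampens Notch signalling. Its probe set 1417986_at had 0.00, 0.19 and 0.09 with TGF-β1, -0.11, 0.07 and 0.04 with BMP4, and -0.24, -0.13 and -0.32 in untreated cultures, so that both treated groups lay above the untreated one. TGF-β1 minus untreated was 0.32 ± 0.09 (adjusted p = 0.069, and 0.028 with the block), and BMP4 minus untreated was 0.23 ± 0.09 (adjusted p = 0.19). The groups overlapped on the other probe set, 1417985_at, whose differences were 0.17 ± 0.14 with TGF-β1 and 0.15 ± 0.14 with BMP4 over untreated cultures (adjusted p = 0.55 and 0.67).

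Jag1 and Jag2 encode the membrane ligands of the Jagged type. On probe set 1421106_at, Jag1 had 0.00, 0.12 and -0.08 with TGF-β1, 0.33, 0.12 and 0.23 with BMP4, and -0.25, -0.36 and -0.23 in untreated cultures. The untreated arrays lay below all others. BMP4 minus untreated was 0.50 ± 0.09, 1.42-fold higher with BMP4 (adjusted p = 0.0086, interval 0.31 to 0.70), and the call was made in 9 of the 9 fits without 1 array. TGF-β1 minus untreated was 0.29 ± 0.09 on this probe set and not called (adjusted p = 0.096), and TGF-β1 minus BMP4 was -0.21 ± 0.09 (adjusted p = 0.21).

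On Jag1 1434070_at the values were 0.03, 0.00 and 0.20 with TGF-β1, 0.11, -0.05 and 0.15 with BMP4, and -0.14, -0.50 and -0.30 in untreated cultures. The untreated arrays were again the lowest, with differences of 0.39 ± 0.11 for TGF-β1 and 0.38 ± 0.11 for BMP4 (adjusted p = 0.074 each). With the block the TGF-β1 difference was called (adjusted p = 0.024). The block gave an adjusted p of 0.025 for BMP4, but BMP4 and untreated arrays were not taken as paired. Between the factors this probe set differed by 0.01 ± 0.11 for TGF-β1 minus BMP4 (adjusted p = 0.98). The remaining Jag1 probe set, 1421105_at, read exactly 0 on 4 of 9 arrays, and TGF-β1 minus untreated was 0.35 ± 0.11 there (adjusted p = 0.11, and 0.047 with the block). The probe sets of Jag1 thus agreed in sign over untreated cultures and disagreed on whether a call was made. Jag2 was not called on either probe set in any comparison, with differences between -0.06 and 0.14 and adjusted p from 0.33 to 0.99.

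Of the 3 receptors, Notch1 was called between the factors. On probe set 1418634_at it had 0.32, 0.22 and 0.33 with TGF-β1, -0.45, -0.49 and -0.24 with BMP4, and 0.01, -0.12 and 0.00 in untreated cultures. The 3 groups did not overlap, with untreated cultures between the others. TGF-β1 minus BMP4 was 0.68 ± 0.09, 1.60-fold higher with TGF-β1 (adjusted p = 0.0013, interval 0.49 to 0.88). On 1418633_at the values were 0.06, 0.26 and 0.23 with TGF-β1, -0.26, -0.32 and -0.37 with BMP4, and 0.00, -0.25 and 0.00 in untreated cultures, and TGF-β1 minus BMP4 was 0.50 ± 0.09 or 1.42-fold (adjusted p = 0.010). Both calls were made in 9 of 9 fits without 1 array. Without all 3 arrays numbered 2 the call of 1418633_at was lost (0.46, adjusted p = 0.057).

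Against untreated cultures the Notch1 differences were smaller. BMP4 minus untreated was -0.36 ± 0.09 on 1418634_at, 1.28-fold lower with BMP4 (adjusted p = 0.044), and -0.24 ± 0.09 on 1418633_at, which was not called (adjusted p = 0.22). The call was made in 1 of 9 fits without 1 array, the one without BMP4 replicate 3, and leaving out any other array took the adjusted p to between 0.057 and 0.16. TGF-β1 minus untreated was 0.33 ± 0.09 on 1418634_at (adjusted p = 0.069, and 0.029 with the block) and 0.27 ± 0.09 on 1418633_at (adjusted p = 0.15). The comparisons with untreated cultures share the same 3 untreated arrays.

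The Notch1 window is printed because the groups of Notch1 did not overlap on 1 probe set and because it held the most motifs of Hes proteins among the matched windows. It lies at chr2:26503773-26504072 on the minus strand (GRCm38.p6). Capitals mark the N-box CACNAG on either strand, at -108 to -103, at -3 to 3 and at -1 to 5, of which the last pair overlap.

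Notch1: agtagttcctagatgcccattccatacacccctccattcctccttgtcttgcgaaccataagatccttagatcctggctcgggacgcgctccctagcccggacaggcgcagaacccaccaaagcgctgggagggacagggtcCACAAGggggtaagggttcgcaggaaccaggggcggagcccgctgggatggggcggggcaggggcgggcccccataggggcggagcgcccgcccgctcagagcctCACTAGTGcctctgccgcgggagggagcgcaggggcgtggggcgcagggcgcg

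N-boxes were found in 4 of the 7 matched windows, those of Nrarp, Notch1, Notch2 and Notch3, and in 42.5% of all windows. The windows of Jag1 and Jag2 held none of the 4 motifs searched.

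Notch2 and Notch3 were not called in any comparison. Over their 4 probe sets, TGF-β1 minus untreated ran from -0.07 to 0.21, BMP4 minus untreated from -0.31 to 0.04 and TGF-β1 minus BMP4 from 0.17 to 0.36. On Notch2 1455556_at the BMP4 arrays, at -0.31, -0.11 and -0.01, lay below the untreated arrays, at 0.30, 0.21 and 0.00, and the difference was -0.31 ± 0.11 (adjusted p = 0.16). The other Notch2 probe set, 1451889_at, had a difference of 0.04 ± 0.10 in that comparison (adjusted p = 0.92). Notch3, a receptor of vascular smooth muscle, had 0.03, 0.00 and 0.33 with TGF-β1, -0.33, -0.37 and -0.02 with BMP4, and 0.19, -0.41 and 0.04 in untreated cultures on 1421964_at. TGF-β1 minus BMP4 was 0.36 ± 0.16 there and 0.24 ± 0.10 on 1421965_s_at (adjusted p = 0.25 and 0.21), with no overlap of these groups on either probe set.

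**Figure D3:**
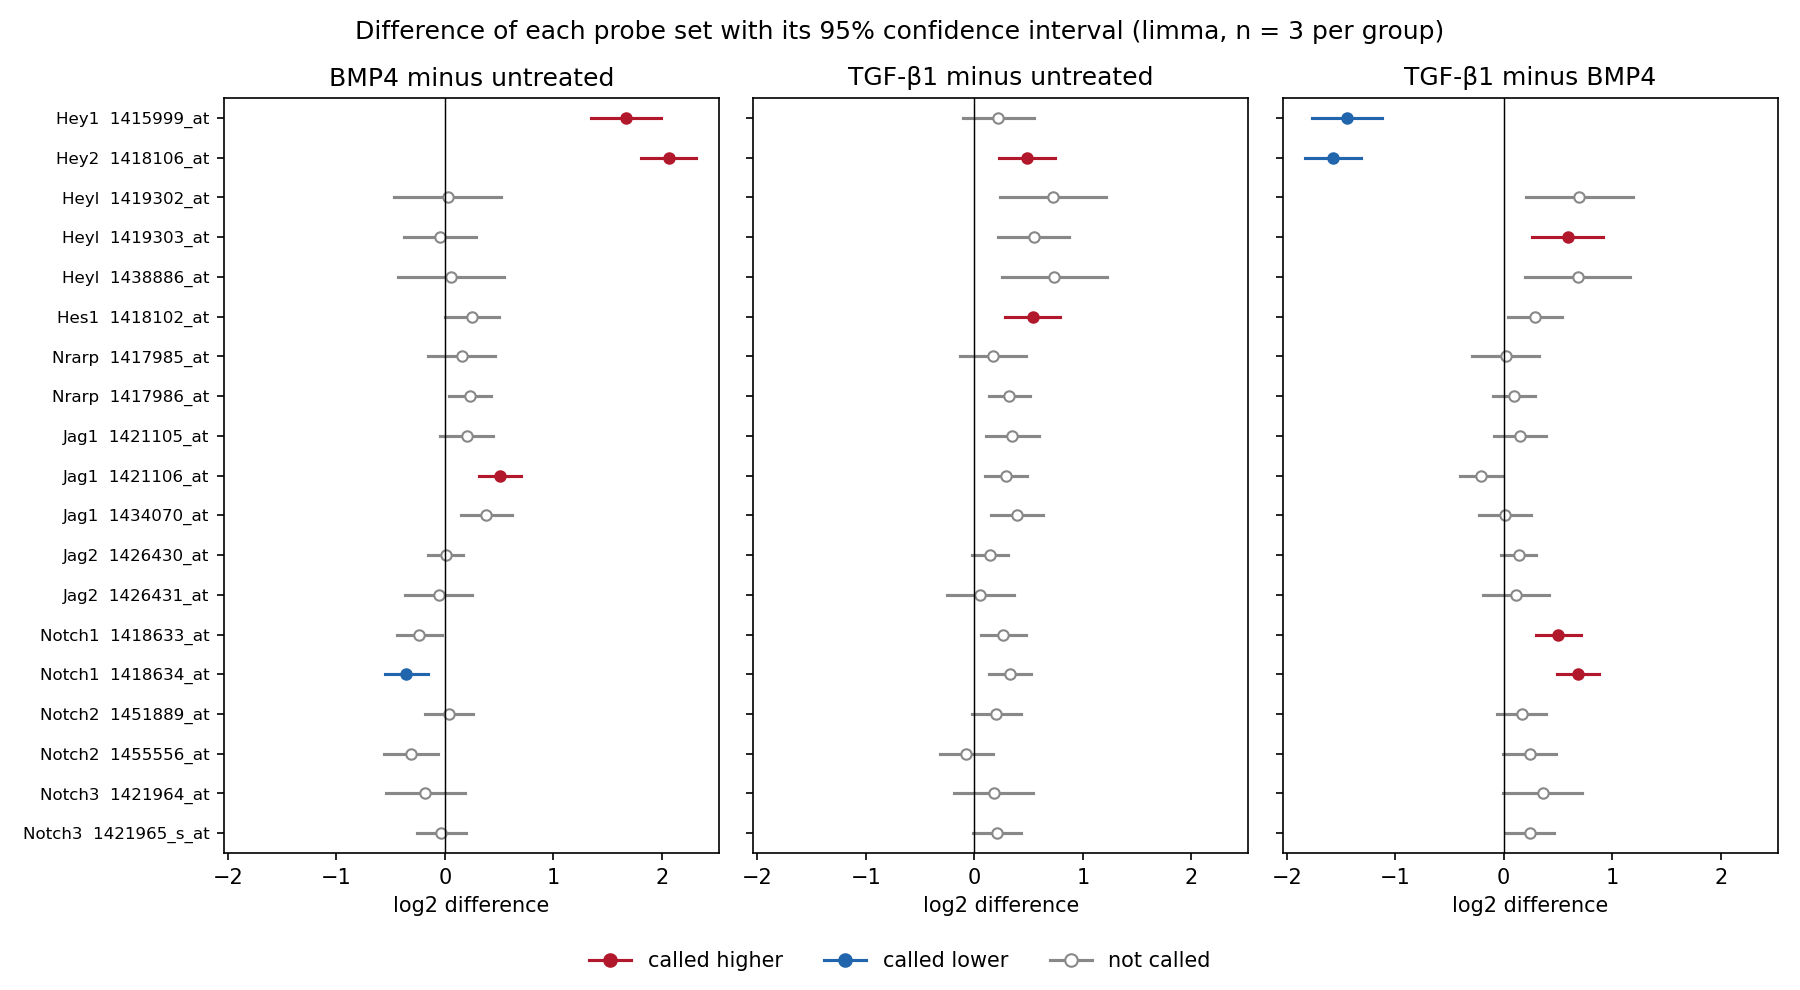
Points give the log2 difference of each of the 19 probe sets in the 3 comparisons (x axis) and bars the 95% confidence interval from limma (n = 3 per group). Filled red points are called higher, filled blue points called lower and open points not called. Hey1 and Hey2 lie far to the right for BMP4 minus untreated, at 1.67 and 2.06, and far to the left for TGF-β1 minus BMP4, at -1.44 and -1.57.

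Counted over the 19 probe sets, BMP4 minus untreated had 3 called higher and 1 lower, where 5.44% of all probe sets tested were called. The BMP4 and untreated arrays did not overlap for 8 of 19, against 20.0% of all probe sets. TGF-β1 minus untreated had 2 called higher and 0 lower, against 4.43% of all. The arrays did not overlap for 13 of 19, all with TGF-β1 above, against 21.8% of all probe sets. With the array number as a block 9 were called higher and 0 lower, against 8.95% of all, and this count rests on a pairing that the correlations show only narrowly. The median difference was 0.29 over the 19 and 0.01 over all probe sets, and 18 of 19 were above 0. For BMP4 minus untreated the medians were 0.04 and 0.00. TGF-β1 minus BMP4 had 3 called higher and 2 lower, against 6.91% of all, and 11 of 19 did not overlap, against 25.5%. With the block it had 5 called higher and 2 lower, against 11.7%. Probe sets of one gene share its transcripts, and the 10 genes on their probe set with the largest variance gave 3 higher and 1 lower with BMP4, 2 higher and 0 lower with TGF-β1, and 1 higher and 2 lower between the factors.

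Of 44 other listed genes, 41 were measured, each read on its probe set with the largest variance. With BMP4 1 of the 41 rose and 1 fell against untreated cultures, where 5.44% of all probe sets were called. Furin, the protease that cuts the Notch precursor on its way to the membrane, had 0.00, 0.00 and -0.09 with TGF-β1, 0.01, 0.33 and 0.17 with BMP4 and -0.30, -0.31 and -0.58 in untreated cultures. Its BMP4 minus untreated difference was 0.57 ± 0.11 (1.48-fold, adjusted p = 0.012). TGF-β1 minus untreated was 0.37 ± 0.11 for Furin (adjusted p = 0.086, and 0.047 with the block). TGF-β1 minus BMP4 was -0.20 ± 0.11 and not called (adjusted p = 0.33). Dtx4, of the Deltex family of ubiquitin ligases that act on Notch, had 0.18, 0.03 and 0.00 with TGF-β1, -0.55, -0.66 and -0.45 with BMP4 and 0.10, -0.08 and 0.05 in untreated cultures. The BMP4 arrays of Dtx4 lay apart below the rest, with BMP4 minus untreated at -0.58 ± 0.09 (adjusted p = 0.0044) and TGF-β1 minus BMP4 at 0.63 ± 0.09 (adjusted p = 0.0022).

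With TGF-β1, 0 of the 41 rose and 1 fell against untreated cultures (5 at an unadjusted p under 0.05), where 4.43% of all probe sets were called. Against BMP4 1 rose and 2 fell, where 6.91% of all were called. Mib2, a ubiquitin ligase that acts on Notch ligands, had -0.23, -0.28 and -0.25 with TGF-β1, 0.00, 0.03 and -0.02 with BMP4 and 0.05, 0.07 and 0.01 in untreated cultures. Its difference was -0.29 ± 0.07 against untreated cultures (adjusted p = 0.035) and -0.25 ± 0.07 against BMP4 (adjusted p = 0.046). Adam17, a protease able to shed the outer part of Notch receptors, had -0.14, 0.00 and -0.35 with TGF-β1, 0.80, 1.10 and 0.21 with BMP4 and -0.48, 0.18 and -0.14 in untreated cultures, with TGF-β1 minus BMP4 at -0.87 ± 0.22 (adjusted p = 0.046). For BMP4 minus untreated, Adam17 was at 0.85 ± 0.22 and Adam10, the main such protease of Notch, at 0.92 ± 0.27, and neither was called (adjusted p = 0.059 and 0.089). With the block, 6 of 41 were called between the factors (2 higher and 4 lower with TGF-β1), against 11.7% of all probe sets. For TGF-β1 against untreated cultures the block called 2 of 41 (1 higher and 1 lower), against 8.95% of all. None of the counts of the 41 genes stood far above the share of all probe sets, and no result about the list is drawn from them.

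The DNA-binding partner Rbpj, the ligands Dll1 and Dll4 and the sugar transferase Lfng were not called in any comparison on the probe set read. Lfng tunes how Notch responds to its ligands. Any other probe sets of these genes are not shown. Rbpj was at -0.20 ± 0.15 for TGF-β1 minus untreated and -0.13 ± 0.15 for BMP4 minus untreated (adjusted p = 0.51 and 0.77). Dll1 was at -0.17 ± 0.09 and -0.05 ± 0.09 in the same comparisons (adjusted p = 0.33 and 0.86), and Dll4 at 0.26 ± 0.12 and 0.02 ± 0.12 (adjusted p = 0.29 and 0.97). Lfng was at -0.26 ± 0.20 and 0.28 ± 0.20 (adjusted p = 0.54 and 0.58), and at -0.54 ± 0.20 for TGF-β1 minus BMP4 (adjusted p = 0.17). The median over the 41 genes was -0.02 for TGF-β1 minus untreated, 0.01 for BMP4 minus untreated and -0.01 for TGF-β1 minus BMP4.

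**Figure D4:**
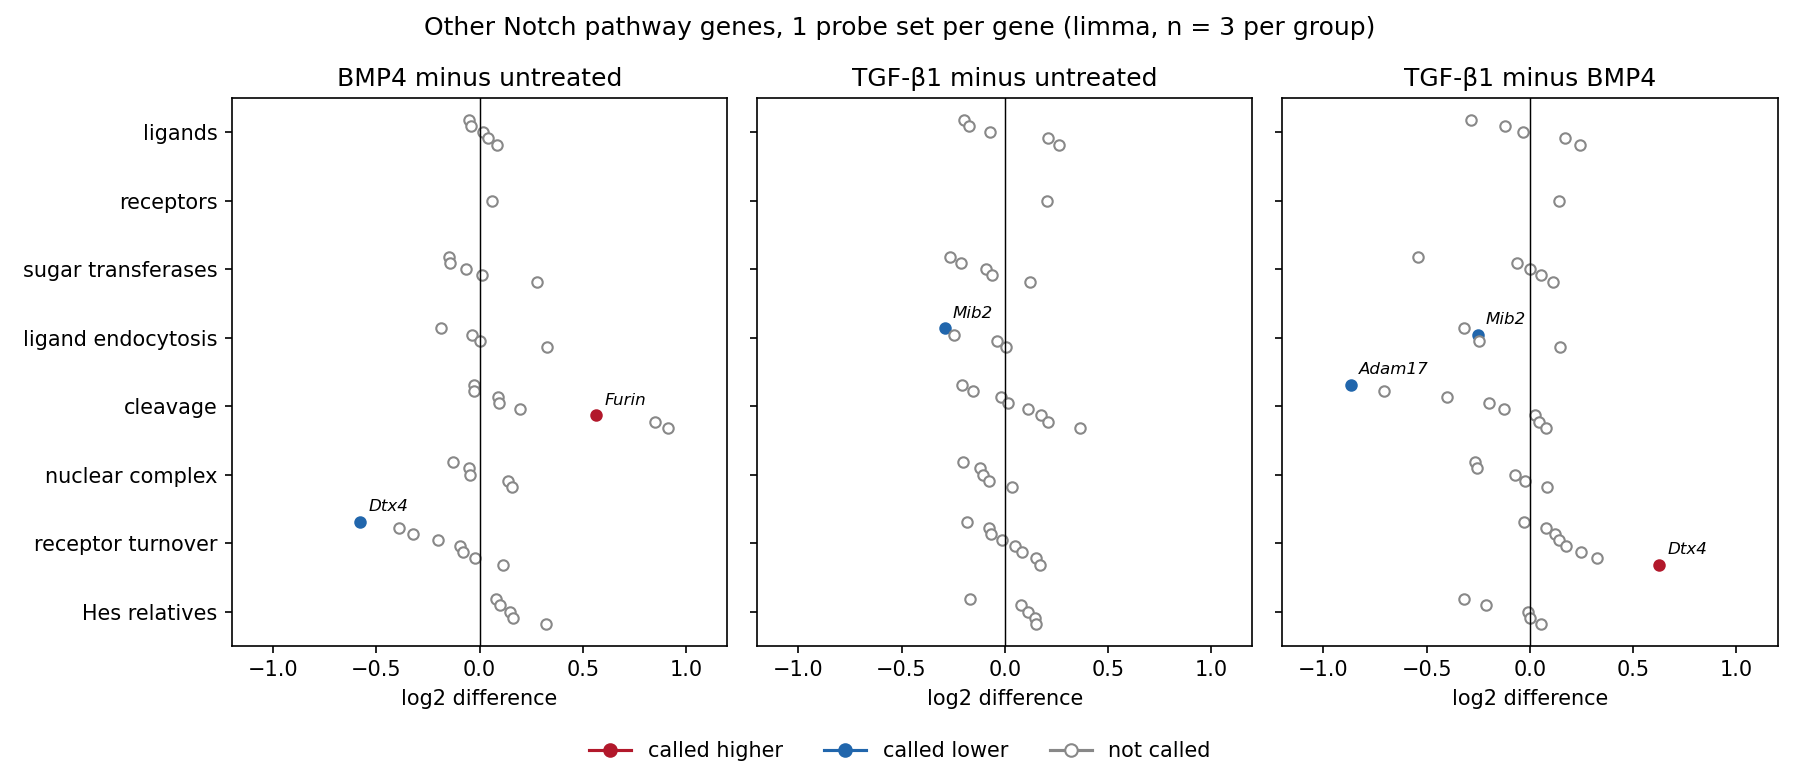
Each point is 1 of 41 other Notch pathway genes, placed by its log2 difference (x axis, 3 panels for the 3 comparisons) and its role in the pathway (rows). Filled points are called (adjusted p under 0.05) and named: Furin at 0.57 and Dtx4 at -0.58 for BMP4 minus untreated, Mib2 at -0.29 for TGF-β1 minus untreated, and Dtx4, Adam17 and Mib2 for TGF-β1 minus BMP4.

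Markers of cells that the dissection could carry along were compared beside these results. Of all probe sets, 5.44% were called for BMP4 and 4.43% for TGF-β1 over untreated cultures, and 6.91% between the factors. With the block the shares were 8.95% for TGF-β1 over untreated cultures and 11.7% between the factors. For 10 endothelial markers the mean centred value ran from 0.05 to 0.11 on TGF-β1 arrays, -0.07 to -0.01 on BMP4 arrays and -0.05 to 0.07 on untreated arrays. Without the block, 0 of 10 were called for either factor against untreated cultures (2 at an unadjusted p under 0.05 with TGF-β1 and 2 with BMP4). Eng, a TGF-β co-receptor of endothelium, was the 1 of 10 called between the factors, at 0.78 ± 0.14 for TGF-β1 minus BMP4 (adjusted p = 0.0079). With the array number as a block, Flt1, a VEGF receptor, was also higher with TGF-β1, by 0.73 over untreated cultures (adjusted p = 0.0053) and by 0.54 over BMP4 (adjusted p = 0.013), sizes near those of Heyl. The list as a whole went both ways. For TGF-β1 minus untreated 5 of the 10 were above 0 (median -0.01), and for TGF-β1 minus BMP4 also 5 (median 0.02).

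For 6 mural cell markers the mean ran from -0.15 to -0.07 with TGF-β1, -0.07 to 0.27 with BMP4 and -0.30 to 0.02 in untreated cultures. With BMP4 3 of the 6 rose (Rgs5, Cspg4 and Kcnj8, at 1.51, 0.80 and 0.65) and Pdgfrb fell by 1.04. With TGF-β1 Rgs5 rose, at 0.81, and Abcc9 fell by 0.88, and the block added Cspg4, at 0.44 (adjusted p = 0.030). Between the factors 1 of the 6 was higher with TGF-β1 (Pdgfrb, at 1.07). Another 3 were lower (Kcnj8, Abcc9 and Rgs5, at -0.97, -0.77 and -0.70). Acta2 was not called in any comparison. It was at -0.04 ± 0.38 with BMP4 and 0.12 ± 0.38 with TGF-β1 over untreated cultures (adjusted p = 0.98 and 0.91). Between the factors it was at 0.15 ± 0.38 (adjusted p = 0.87). For 5 sclerotome markers the mean ran from -0.05 to 0.24 with TGF-β1, -0.46 to -0.27 with BMP4 and -0.05 to 0.50 in untreated cultures. With BMP4 0 of these 5 rose and 2 fell over untreated cultures, Meox1 by 1.61 (adjusted p = 0.00017) and Pax1 by 1.17 (adjusted p = 0.024). Between the factors Meox1 was higher with TGF-β1, at 2.14, and Foxc2 lower, at -0.46. With TGF-β1 0 of the 5 were called over untreated cultures (1 at an unadjusted p under 0.05), and with the block Pax1 was lower, at -0.51 (adjusted p = 0.026).

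Of 6 neural, 5 myotome, 3 notochord and 3 erythroid markers measured, 0 were called with TGF-β1 over untreated cultures without the block (1, 4, 1 and 2 at an unadjusted p under 0.05). With the block Sox2 of the neural list was higher, at 0.49 (adjusted p = 0.034), and 3 of the 5 myotome markers were lower, Myf5 at -0.42 (adjusted p = 0.0094), Myod1 at -0.37 (adjusted p = 0.033) and Pax7 at -0.43 (adjusted p = 0.021). With BMP4, 2, 1, 1 and 0 of these lists were called over untreated cultures (2, 1, 1 and 3 at an unadjusted p under 0.05). Sox2 and Myf5 were higher, at 1.44 and 0.83, and Krt18 and Nes lower, at -1.29 and -0.47. Between the factors the same genes were called. Krt18 and Nes were higher with TGF-β1, at 1.79 and 0.60, and Myf5 and Sox2 lower, at -1.25 and -0.95. The part of these cell types in the differences of the Notch pathway genes was not tested.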

How the data were processed

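RNA from 9 cultures was hybridised to Affymetrix mouse arrays, after 50 ng of total RNA per culture had gone through a 2-cycle amplification. The authors deposited log2 values made by RMA (version not given in the sources used here), and each of the 45101 probe sets had a median of 0 over the arrays (tolerance 1e-06), so levels and signal over background were not available and no dim probe set was removed. Of all values 18.7% were exactly 0. The number of arrays limits the precision.

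The 64 control probe sets were left out, and 45037 remained, of which 34945 carried 1 gene symbol. The log2 differences were tested with limma 3.58.1 (R 4.3.3) in 1 fit of 3 groups over 9 arrays (6 residual degrees of freedom, median residual SD 0.129), two-sided, with Benjamini-Hochberg adjustment over all 45037. Errors of differences are standard errors. The probe set with the largest variance stood for a gene, chosen without the groups. All members are named, with the called genes of the pathway list and Rbpj, Dll1, Dll4 and Lfng, and the 4 genes of highest correlation with each Hey gene. The members and lists were chosen with earlier results of these data known. The fit was tested on simulated data. Figures were drawn with Python 3.11.15 and matplotlib 3.10.9.

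Array titles carry numbers 1 to 3, which the study's methods describe as separate repeats of the experiment. Deviations of arrays with the same number correlated at 0.14, 0.49 and 0.28 for TGF-β1 with untreated and at 0.29, 0.50 and 0.38 for TGF-β1 with BMP4. Each TGF-β1 array correlated less with arrays of other numbers. With untreated arrays the margin was narrow, the highest such value being 0.06 for TGF-β1 array 1 and 0.20 for TGF-β1 array 3. Seen from the other side, untreated array 1 correlated more with TGF-β1 array 3, at 0.20, than with TGF-β1 array 1, at 0.14. The pairing of TGF-β1 with untreated is thus less sure than that with BMP4. Both were taken as paired, and values with the array number as a block stand beside the unblocked ones. For BMP4 with untreated the same-number correlations were -0.05, 0.50 and 0.24, and these groups were not taken as paired. There the BMP4 arrays numbered 1 and 3 correlated more with an untreated array of another number, at 0.11 and 0.36.

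Alternatives were the block, leaving out each array, only the groups compared, leaving out the arrays numbered 2, quantile normalization, array weights, 2 filters on probe sets, the mean of a gene's probe sets, and the unequal-variance ANOVA named in the study's methods.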

Additional observations from a re-analysis of the deposited data

How the results depend on the processing

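Among the 19 probe sets, the count called for TGF-β1 minus untreated was 2, and became 9 with the replicate block, 4 after quantile normalization, 1 with array weights and 1 in a fit of only the compared groups. For BMP4 minus untreated it was 4, and 5 with the replicate block, which added Jag1 1434070_at (0.38, adjusted p = 0.025). BMP4 and untreated arrays were not taken as paired, so block values for that comparison, here and below, are an alternative only. For TGF-β1 minus BMP4 it was 5, and 7 with the block. The methods' ANOVA called 6 of 19 in each comparison at an unadjusted p and 0 after adjustment. After adjustment it called 11 of all 45037 probe sets for TGF-β1 minus BMP4 and 0 for each factor over untreated cultures. The unadjusted ANOVA counts here and below are given without a share of all probe sets. Whether they exceed that share was not tested, and no conclusion is drawn from them. With limma, 8 of 19 had an unadjusted p under 0.05 for BMP4 minus untreated, against 7693 of 45037. The limma counts were 11 against 8427 for TGF-β1 minus untreated and 10 against 9029 for TGF-β1 minus BMP4. Leaving out 1 array gave 0 to 3 for TGF-β1 minus untreated, 3 to 4 for BMP4 minus untreated and 4 to 6 for TGF-β1 minus BMP4.

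Among the 41 other pathway genes, BMP4 minus untreated had 2 called, against 5 with the block, 5 with array weights, 4 among the more variable probe sets, 1 without the arrays numbered 2, and 7 unadjusted and 0 adjusted under the ANOVA (2 to 5 without 1 array). TGF-β1 minus untreated had 1, against 2 with the block, 4 unadjusted and 0 adjusted under the ANOVA, and 0 in a fit of only the compared groups, without the arrays numbered 2, among the more variable probe sets and without probe sets shared by transcripts (0 to 1 without 1 array). TGF-β1 minus BMP4 had 3, against 6 with the block, 1 in a fit of only the compared groups, 1 without the arrays numbered 2 and 0 under the adjusted ANOVA (1 to 2 without 1 array).

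Over all probe sets the block called 4069 for BMP4 minus untreated, 4029 for TGF-β1 minus untreated and 5252 for TGF-β1 minus BMP4, against 2449, 1993 and 3110 without it. The Hey1 and Hey2 calls of BMP4 minus untreated and TGF-β1 minus BMP4 and the Jag1 call of BMP4 minus untreated were lost under the adjusted ANOVA and in no limma alternative. The Hey2 call of TGF-β1 minus untreated was also lost without the arrays numbered 2 (adjusted p = 0.11) and in a fit of only the compared groups (adjusted p = 0.054). It was lost as well with array weights (adjusted p = 0.056) and under the adjusted ANOVA (adjusted p = 0.43). The Notch1 call of BMP4 minus untreated was lost without the arrays numbered 2 (adjusted p = 0.17) and in a fit of only these groups (adjusted p = 0.10). It was lost too among the more variable probe sets (adjusted p = 0.085), on the mean of its probe sets (-0.30, adjusted p = 0.061) and under the adjusted ANOVA (adjusted p = 0.42). The causes were not tested.

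No difference called in either fit changed sign. Among differences not called, the sign turned in 30 alternative values of 11 results, whose sizes were at most 0.11 in the unblocked fit of all arrays. Without the arrays numbered 2, BMP4 minus untreated for Heyl was -0.11, TGF-β1 minus BMP4 was -0.0135 for Jag1 1434070_at, -0.0684 for Jag2 and -0.17 for Nrarp, and TGF-β1 minus untreated was -0.14 for Jag2. With array weights BMP4 minus untreated for Heyl was -0.0811. After quantile normalization TGF-β1 minus BMP4 was -0.0178 for Jag1 1434070_at and -0.0008 for Nrarp, and BMP4 minus untreated was -0.0001 for Jag2 1426430_at. On the mean of its probe sets Notch2 was at 0.064 for TGF-β1 minus untreated. Leaving out 1 array gave, for BMP4 minus untreated, -0.24 to 0.21 for Heyl, -0.18 to 0.10 for 1419303_at, -0.14 to 0.25 for 1438886_at, -0.0473 to 0.0444 for Jag2 1426430_at, -0.0111 to 0.0641 for Notch2 1451889_at and -0.13 to 0.0558 for Notch3 1421965_s_at. It gave -0.054 to 0.0497 for Jag1 1434070_at, -0.0696 to 0.23 for Jag2 and -0.14 to 0.14 for Nrarp in TGF-β1 minus BMP4, and -0.13 to 0.18 for Jag2 in TGF-β1 minus untreated.

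With values centred per probe set, a member near background could not be told from one well above it.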
